A study of Rattus norvegicus with 8 samples.

Results

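The tumor suppressor p53 was followed through 9 of its target and partner genes, Mdm2, Cdkn1a, Bax, Ccng1, Gadd45a, Sesn1, Bbc3, Cdkn2a and Cdkn2b, on a rat array that measures long non-coding RNAs and mRNAs together. The genes were chosen by name, and a gene counted as measured where the RefSeq transcript that the array gives for a probe belongs to it. Of the 9 genes, 7 had such a probe, among 13903 genes with a matched probe in all, while no probe was matched to Sesn1 or Bbc3. Each of the 7 genes was measured by 1 probe in 1 spot.

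All samples were from male F344 rats and were collected in week 95 of a lung cancer model induced by NNK, 4-(methylnitrosamino)-1-(3-pyridyl)-1-butanone, a carcinogenic nitrosamine of tobacco smoke. The groups were lung tumor (3 arrays) and the normal lung tissue matched to it (3 arrays), both from NNK-treated rats, and a blood clot from 1 control rat and from 1 NNK-treated rat. The tumors were moderately differentiated adenocarcinomas, and lung of untreated rats was not analysed here, so both lung groups share the NNK exposure. The ages of the rats are not given in the sources used here. The description of the NNK blood sample repeats that of a tumor, but its title, source and tissue name blood, and its signals were those of blood: the hemoglobin probe Hbb gave a signal of 660000, and Sftpc, which encodes surfactant protein C, was not well above background.

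p53 is a transcription factor that is kept low by the ubiquitin ligase Mdm2 and is stabilized when DNA damage or oncogene activity sets off its kinases. It then switches on genes that halt the cell cycle, repair DNA or trigger apoptosis, Mdm2 among them, so that the loop limits itself. The Cdkn2a locus lies upstream: one of its products, ARF, holds Mdm2 back, and the other, INK4A, inhibits the cyclin D kinases, as does the product of the neighboring Cdkn2b gene. Nitrosamines such as NNK are activated to agents that alkylate DNA, and loss of p53 or of the INK4 inhibitors is common in human lung adenocarcinoma.

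Promoters of the 3 genes that passed the test in lung are shown because these genes differed in direction. Each runs from 250 bases before to 50 bases after the RefSeq start on the GRCr8 assembly, 5′ to 3′ on the strand of the gene. Capitals mark matches to a single p53-binding decamer or to the GC box (GGGCGG), searched on both strands. Such a decamer is a part of a p53 site, not a whole one, and pairs of decamers were not searched for. The regions are chr20:7150682-7150981 on the plus strand for Cdkn1a, chr5:109134806-109135105 on the minus strand for Cdkn2b, and chr5:109107907-109108206 on the minus strand for Cdkn2a.
Cdkn1a: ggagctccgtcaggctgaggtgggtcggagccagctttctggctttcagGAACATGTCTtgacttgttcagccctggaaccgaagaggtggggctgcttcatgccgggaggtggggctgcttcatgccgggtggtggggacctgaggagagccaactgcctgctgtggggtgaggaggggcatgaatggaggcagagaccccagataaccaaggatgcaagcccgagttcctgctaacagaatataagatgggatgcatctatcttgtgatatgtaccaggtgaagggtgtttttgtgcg
Cdkn2b: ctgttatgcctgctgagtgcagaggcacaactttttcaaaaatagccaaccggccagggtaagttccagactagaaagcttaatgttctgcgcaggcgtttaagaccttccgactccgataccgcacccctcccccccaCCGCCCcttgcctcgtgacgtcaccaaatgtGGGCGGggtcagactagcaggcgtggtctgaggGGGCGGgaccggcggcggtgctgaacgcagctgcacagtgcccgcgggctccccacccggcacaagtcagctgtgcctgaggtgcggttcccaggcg
Cdkn2a: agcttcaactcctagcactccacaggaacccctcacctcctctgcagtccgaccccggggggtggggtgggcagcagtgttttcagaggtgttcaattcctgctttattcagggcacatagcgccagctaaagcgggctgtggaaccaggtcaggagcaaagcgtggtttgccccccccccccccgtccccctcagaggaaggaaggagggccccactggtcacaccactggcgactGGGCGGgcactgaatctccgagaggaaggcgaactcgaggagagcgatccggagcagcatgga
The window of Cdkn1a held 1 p53 decamer, which starts 201 bases before the RefSeq start, and no GC box. The window of Cdkn2b held 3 GC boxes and no p53 decamer, and that of Cdkn2a held 1 GC box and no p53 decamer. A decamer was also present once in the windows of Ccng1, Gadd45a and Sesn1, and was not in that of Mdm2. Over 33469 promoters of the same length, 7.98% held the p53 decamer and 33.1% the GC box. The TATA box (TATAAA), present in 14.2% of promoters, was in none of the 7 windows. A match is a description of the letters in these windows and not evidence of binding.

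In lung, Cdkn1a and Cdkn2b were lower in tumor, Cdkn2a was higher, and Mdm2, Ccng1 and Gadd45a did not pass the test. The values are log2 processed signals that were quantile-normalized over the 6 lung arrays, and a gene passed where the adjusted p of limma was at or under 0.05 over the 12471 probes tested. Of the 5 genes tested, 1 was higher and 2 were lower. This stands against a background in which 33.7% of all probes tested were higher in tumor and 31.4% lower, and with 5 genes tested these counts are close to that background.

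Cdkn1a encodes p21, the cyclin-dependent kinase inhibitor that carries out much of the p53-dependent arrest. Its log2 signal was 15.64, 15.56 and 15.57 on the normal lung arrays and 14.64, 14.69 and 14.68 on the tumor arrays. The groups did not overlap, and the gap between them was far wider than the spread within either. Cdkn1a was 1.89-fold lower in tumor (log2 difference -0.92, SE 0.052, 95% interval -1.05 to -0.79, adjusted p = 5.51e-05 by limma).

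Cdkn2b encodes the kinase inhibitor INK4B, which acts on the cyclin D kinases and is known as a target of TGF-beta. Its log2 signal was 12.46, 12.56 and 12.45 in normal lung and 11.27, 11.39 and 11.44 in tumor. All tumor arrays lay below all normal arrays, with tumor 1 the lowest. Cdkn2b was 2.18-fold lower in tumor (log2 difference -1.12, SE 0.07, 95% interval -1.30 to -0.95, adjusted p = 8.07e-05 by limma).

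Cdkn2a, the locus of INK4A and ARF, moved the other way. Its log2 signal was 5.48, 5.09 and 5.14 in normal lung and 7.04, 7.04 and 7.05 in tumor. The tumor arrays were nearly equal, and every one was above every normal array. Cdkn2a was 3.5-fold higher in tumor (log2 difference 1.81, SE 0.11, 95% interval 1.52 to 2.10, adjusted p = 8.46e-05 by limma). The signal was dim: before normalization it was 30.78 to 38.19 in normal lung and 139.6 to 149.5 in tumor, though well above background on all 6 arrays. The difference was smallest, at 1.04, with the normexp background correction, which adds an offset to the signals. Which of the transcripts of the locus the probe detects was not tested.

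**Figure D1:**
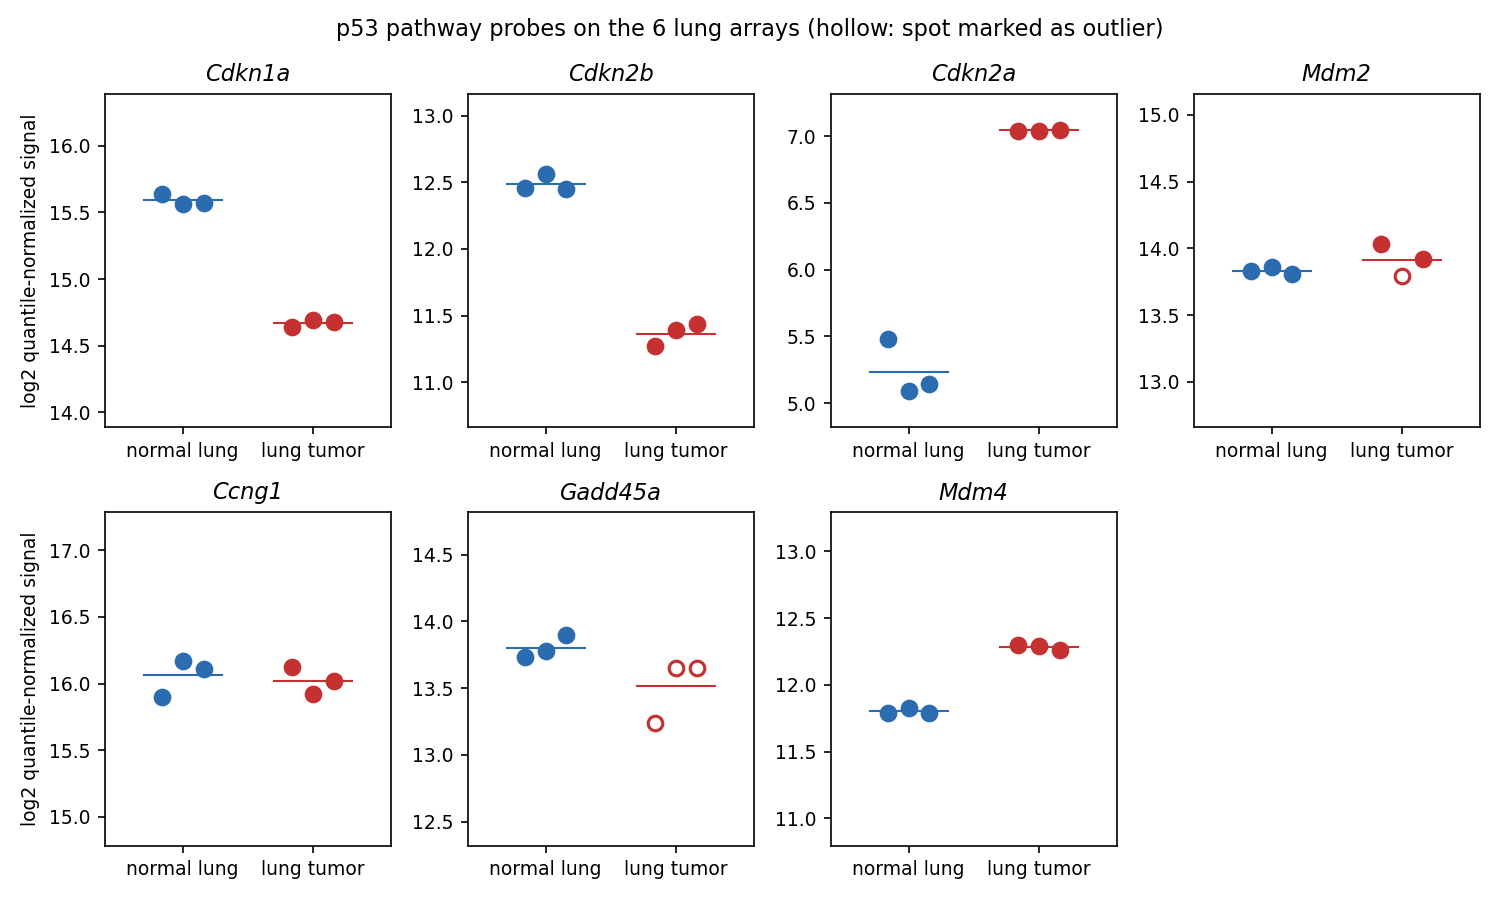
Log2 quantile-normalized signal of 7 genes on each lung array, with normal lung in blue and lung tumor in red; every panel spans the same number of log2 units, the lines are means over the 3 arrays shown and hollow points are spots marked as outliers. Cdkn1a and Cdkn2b are lower on all tumor arrays, Cdkn2a and Mdm4 are higher on all, and the groups overlap for Mdm2 and Ccng1.

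Mdm2, the ubiquitin ligase that degrades p53 and is itself a p53 target, had log2 signals of 13.83, 13.86 and 13.81 in normal lung. In tumor they were 14.03, 13.79 and 13.92, where the scanner software marked the spot of tumor 2 as an outlier. Without that spot the difference was 0.14 (SE 0.067, 95% interval -0.04 to 0.32, adjusted p = 0.123 by limma), and with it 0.08 (adjusted p = 0.381 by limma). The direction turned to -0.06 when arrays were scaled by their 75th percentile, and Mdm2 passed only with normexp, at 0.28 (adjusted p = 0.00736 by limma).

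Ccng1 encodes cyclin G1, a p53 target that recruits a phosphatase to Mdm2. Its log2 signal was 15.90, 16.17 and 16.11 in normal lung and 16.12, 15.92 and 16.02 in tumor. The groups overlapped, and the difference of -0.04 (SE 0.098, 95% interval -0.29 to 0.21, adjusted p = 0.737 by limma) was smaller than the spread within normal lung. Its sign was not stable, at 0.02 without normal lung 2, 0.01 without tumor 2 and 0.06 with the scan as a block.

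Gadd45a encodes a stress protein that takes part in growth arrest and DNA repair. Its log2 signal was 13.73, 13.78 and 13.90 in normal lung and 13.24, 13.65 and 13.65 in tumor. All tumor arrays were lower, but all 3 tumor spots carried an outlier mark, so the gene was tested only with marked spots kept. The difference was then -0.29 (SE 0.13, 95% interval -0.62 to 0.05, adjusted p = 0.107 by limma). Gadd45a passed the test under 3 alternatives, at -0.50 with the 75th percentile (adjusted p = 0.00946 by limma), -0.51 with normexp (adjusted p = 0.00159 by limma) and -0.56 with the scan as a block (adjusted p = 0.00432 by limma).

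Bax, the BCL2 family member that permeabilizes mitochondria, was not well above background on any of the 8 arrays. Its processed signal was 4.049 to 6.456 in normal lung, 6.882 to 12.68 in tumor, and 3.145 and 14.37 in control and NNK blood. No difference was computed for it.

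Mdm4, which binds p53 and blocks its activity, had log2 signals of 11.79, 11.83 and 11.79 in normal lung and 12.30, 12.29 and 12.26 in tumor. It was 1.39-fold higher (log2 difference 0.48, SE 0.048, adjusted p = 0.000494 by limma). The p53 protein was not measured.

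The precision of these comparisons rests on arrays that were closer to each other than the spots of one probe are. The 3 normal lung arrays differed by less than the sampling noise between replicate spots, with a ratio of observed to expected squared difference of 0.464 to 0.788, and so did tumors 2 and 3 (0.464), while tumor 1 differed from them (3.01 and 3.34). The p-values therefore measure the spread between these arrays, which may be technical. Counted as 1 normal sample and 2 tumor samples, the differences were about the same size, at -0.93 for Cdkn1a, -1.15 for Cdkn2b, 1.81 for Cdkn2a and 0.48 for Mdm4. In that fit the single normal sample has no spread of its own and is assumed to vary like the tumors. The adjusted p of limma was then 0.037 for Cdkn2a, whose tumor values were nearly equal, and 0.0776 for Cdkn1a, 0.0627 for Cdkn2b and 0.192 for Mdm4, which no longer passed.

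The normal lung arrays and tumor 1 were scanned together, and tumors 2 and 3 in another scan. Within the first scan, tumor 1 differed from the normal arrays by -0.95 for Cdkn1a, -1.22 for Cdkn2b and 1.81 for Cdkn2a. In the same scan the difference was 0.50 for Mdm4 and 0.20 for Mdm2. The other scan held no normal lung. These values had the sign of those over all arrays.

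**Figure D2:**
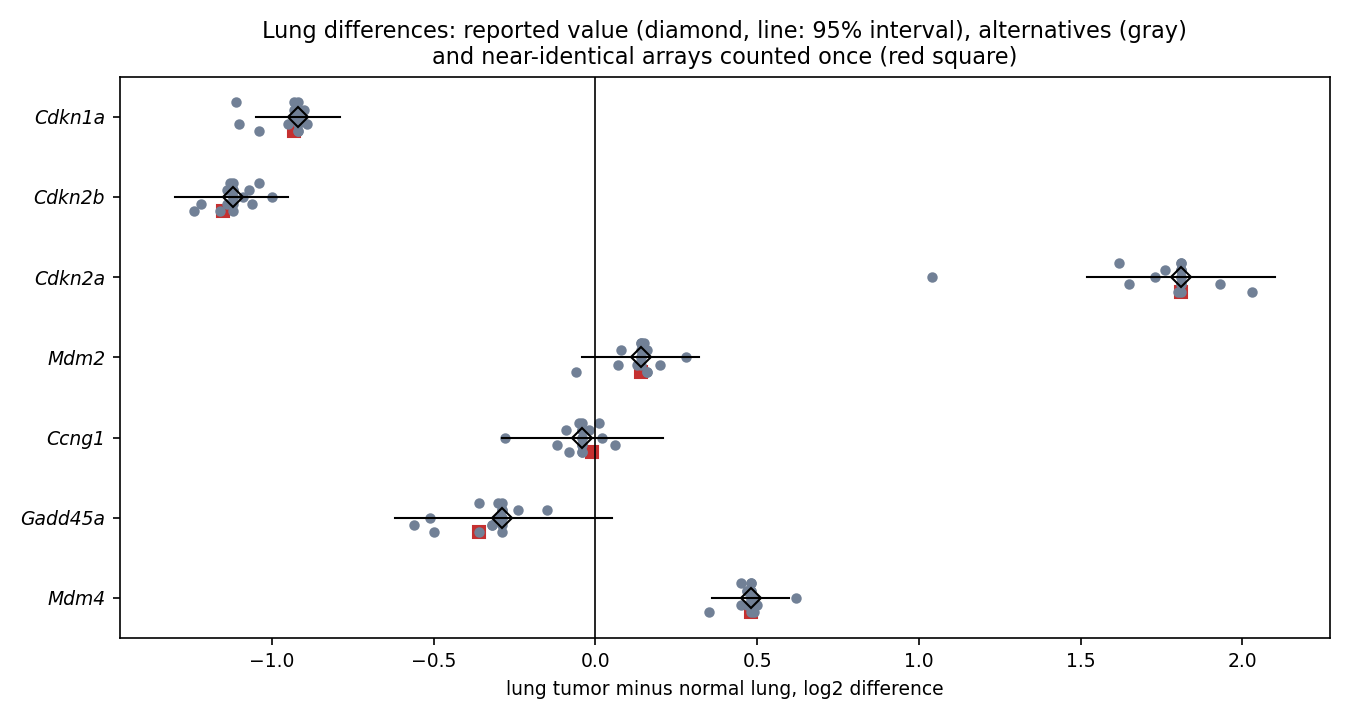
Log2 difference between lung tumor and normal lung for 7 genes under each way of processing; the diamond is the reported value with its 95% interval, gray points are the alternatives and the red square counts near-identical arrays once. No alternative turned the sign of Cdkn1a, Cdkn2b, Cdkn2a, Gadd45a or Mdm4, whereas points of Mdm2 and Ccng1 lie on both sides of 0.

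Several marker lists of cell types moved with the groups. The summed quantile-normalized signal of 5 endothelial markers was 205000 to 214000 in normal lung and 36900 to 37200 in tumor, with Cdh5 not well above background on any array. That of 7 type 1 alveolar markers was 1190000 to 1210000 against 353000 to 360000, and that of 6 proliferation markers was 8790 to 9270 against 24700 to 33700. The summed signal of 4 red blood cell markers was 220000 to 229000 against 131000 to 140000. Summed signals were also lower in tumor for 4 neutrophil markers (12800 to 13600 against 2680 to 3320), 8 T cell markers (18700 to 19600 against 10100 to 11500) and 3 B cell markers (523 to 545 against 195 to 281). They were higher for 7 type 2 alveolar markers (1010000 to 1050000 against 1190000 to 1210000). Single markers of a list did not always follow its sum. With outlier-marked spots kept, 5 type 2 markers were higher and 2 lower, Sftpb (-0.30) and Sftpa1 (-0.26). Among B cell markers Cd79b was higher and Cd22 lower (-1.39), and 4 of 7 T cell markers tested did not pass. Rtkn2, a type 1 marker not well above background in normal lung, was higher in tumor. The part of these shifts in the differences of Cdkn1a, Cdkn2b and Cdkn2a was not tested, and in bulk tissue fewer cells of a type and less RNA per cell cannot be told apart.

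The rest of the pathway was read through 122 further genes in 7 lists, of which 98 had a probe and 56 were tested. Of these, 23 were higher in tumor, 17 lower and 16 did not pass, with a median log2 difference of 0.13 beside 0.07 over all probes. With outlier-marked spots kept, 90 of them were tested, of which 36 were higher, 26 lower and 28 did not pass. Over all probes this setting called 34.5% higher and 31.6% lower, so the lists as a whole moved in both directions at about the rate of the array. The counts of each list below are from the main fit, which called 33.7% of all probes tested higher and 31.4% lower. With 6 to 10 genes tested per list they describe these genes only.

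Among p53 regulators and damage kinases, 4 of 8 tested genes were higher, 2 lower and 2 did not pass. Atm, the kinase that senses double-strand breaks, was above background on the 3 tumor arrays and on no normal array, and was at least 1.68-fold higher (adjusted p = 0.00194 by limma). Chek2, the kinase that Atm activates, had a log2 difference of 1.00 (SE 0.29, adjusted p = 0.0265 by limma), which no longer passed without normal lung 1 (0.0771), without normal lung 2 (0.0804) or without tumor 1 (0.0596). Npm1, the nucleolar protein nucleophosmin, which binds ARF, was 7.45-fold higher (adjusted p = 1.12e-05 by limma), with all tumor spots marked as outliers. Chek1 (0.52) and Mdm4 rose as well, and Twist1 (-0.63) and Ppm1d, a phosphatase that switches p53 off (-0.39), fell.

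Of 7 other arrest genes of p53 tested, 2 were higher, 2 lower and 3 did not pass, close to the 33.7% higher and 31.4% lower of all probes. Rprm, which encodes the arrest factor Reprimo, was 2.30-fold higher (adjusted p = 9.62e-05 by limma), while Zmat3 fell (-0.93), by about as much as Cdkn1a. With marked spots kept, Plk2, a polo-like kinase, was 3.53-fold lower (adjusted p = 2.7e-05 by limma).

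Of the 7 apoptosis genes tested, 2 were higher, 3 lower and 2 did not pass. Fas, the death receptor, was 3.81-fold lower (log2 difference -1.93, SE 0.16, adjusted p = 0.00022 by limma), and Tp53i11 was 3.27-fold lower (adjusted p = 2.01e-05 by limma). Bcl2l14 was 5.61-fold higher (adjusted p = 0.000109 by limma) from the unmarked spots of 2 tumors. With marked spots kept, Tp53inp1 (1.30) and Apaf1, the scaffold of the apoptosome (1.16), also rose. Pmaip1, the gene of NOXA, was not well above background on any lung array.

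Of the 6 DNA repair genes tested, 2 were higher and 4 did not pass. The higher ones were Xrcc5 (0.76), a subunit of the Ku complex, and Pcna (0.18), the replication clamp. Gadd45b, a relative of Gadd45a, was 4.34-fold lower with marked spots kept (adjusted p = 0.000112 by limma), and Gadd45g was higher (0.72), so the family did not move as one. Mgmt, which repairs the alkylated guanine that nitrosamines leave, differed by -0.28 (adjusted p = 0.123 by limma).

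In the metabolism and stress list 5 genes were higher, 3 lower and 1 did not pass. Igfbp3, which binds insulin-like growth factors, was 2.46-fold lower (adjusted p = 4.63e-05 by limma). With marked spots kept, Gls2, a glutaminase, was 2.34-fold higher and Ddit4, an inhibitor of mTOR, 3.57-fold lower. Tgfa, a ligand of the EGF receptor, had a difference of 1.84 (SE 0.42, adjusted p = 0.0116 by limma), and was 0.89 in tumor 1 alone against normal lung. Sesn3 (0.68), a relative of the unmeasured Sesn1, rose.

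The axis from CDK inhibitors to RB held some of the largest differences, with 5 genes higher, 4 lower and 1 not passed. Cdkn1c, which encodes the p57 inhibitor of the same family as p21, was 5.77-fold lower (log2 difference -2.53, SE 0.12, adjusted p = 3e-05 by limma), and its 3 probes lay between -2.53 and -2.66. Ccnd1, cyclin D1, was 5.69-fold higher (adjusted p = 3.74e-05 by limma) and Ccne1, cyclin E1, 5.20-fold higher (adjusted p = 1.41e-05 by limma). Ccnd2 was not well above background in normal lung and was at least 1.1-fold higher (adjusted p = 0.0127 by limma). Bmi1, the Polycomb protein known to repress the Cdkn2a locus, had a difference of 1.37 (SE 0.43, adjusted p = 0.0363 by limma). It no longer passed without normal lung 2 (0.104), normal lung 3 (0.102), tumor 1 (0.0873) or tumor 2 (0.081). Cdkn2c, a further gene of the INK4 family, fell (-0.68), as did Cdkn2b.

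In the BCL2 family 3 of 9 tested genes were higher, 3 lower and 3 did not pass. Bmf, a pro-apoptotic BH3-only gene, was 2.47-fold higher (adjusted p = 3.14e-05 by limma), and Bok, a relative of Bax, 2.19-fold lower (adjusted p = 0.000196 by limma). The 4 probes of Bcl2l1, which encodes BCL-XL, disagreed, with differences of 0.79 and 0.34 for the dimmer pair and -0.75 and -0.90 for the brighter pair.

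Over all pathway genes, those followed here included, 61 were tested, of which 24 were higher and 19 lower. With near-identical arrays counted once, fewer of them were called in each direction, as was so over all probes tested. Those still higher included Cdkn2a, Atm, Bcl2l14, Ccnd1, Ccne1 and Bmf, and those still lower were Tp53i11 and Cdkn1c, so the other genes named above from unmarked spots no longer passed. With marked spots kept, Tp53inp1, Apaf1 and Tgfa lost the call as well. Without tumor 3, the number of pathway genes lower in tumor was 12 in place of 19. Over all probes tested, 3449 of 11490 were lower without tumor 3, in place of 3918 of 12471.

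**Figure D3:**
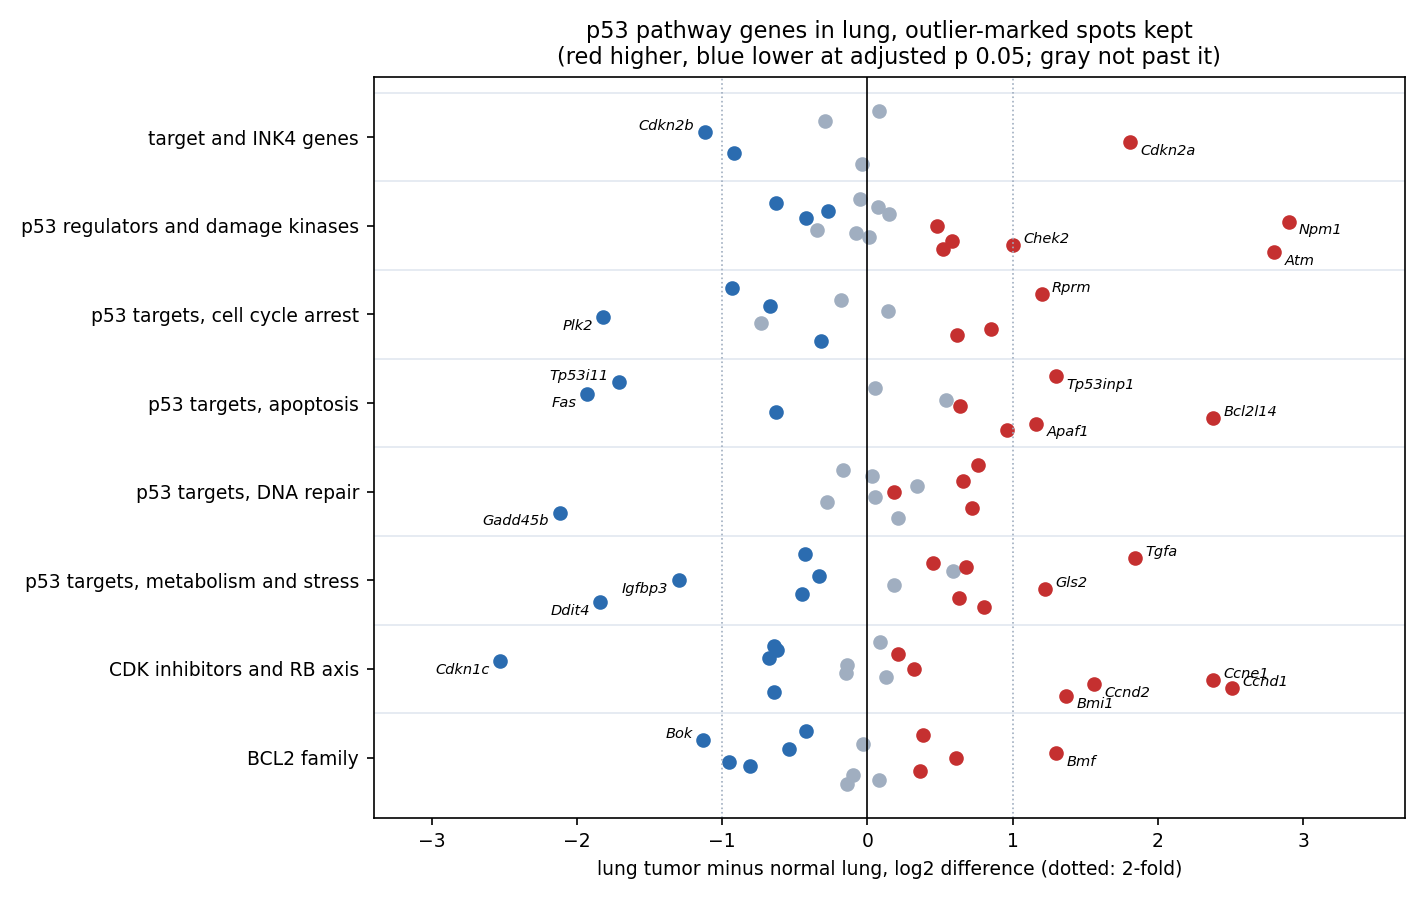
Log2 difference between lung tumor and normal lung of pathway genes, by list, with outlier-marked spots kept; red points are higher and blue points lower at an adjusted p at or under 0.05, gray points did not pass and dotted lines mark a 2-fold change. Every list but that of DNA repair and that of regulators has 2-fold changes in both directions; the points of Atm and Ccnd2 are fitted values of probes below background in normal lung.

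The lung profile of each measured gene was set against all other named genes by the root mean square difference of their log2 values, centred over the 6 arrays. The nearest were Tpcn1 (0.0194) and Ddc (0.0206) for Cdkn1a, and Kcnip2 (0.0255) and Npr1 (0.0378) for Cdkn2b. For Cdkn2a they were Ces4a (0.0805) and Gpr85 (0.102), so its profile had the fewest near neighbors, with 1 of 6307 genes within 0.1. For Mdm2 they were Clic2 (0.0192) and Inpp5j (0.0224), for Ccng1 Ogfod2 (0.0463) and Slc25a25 (0.0484), and for Gadd45a Fam81a (0.0354) and Ube2e3 (0.039). With 6 arrays in a few close clusters this describes these arrays only.

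Blood was compared without a test, since each group was 1 array, and a difference of at least 2-fold after quantile normalization over the blood arrays was used as a description. Of the 6 genes compared, Cdkn2a was over 2-fold higher in NNK blood and Cdkn2b over 2-fold lower. Over all 14452 probes compared, 23.1% were higher by 2-fold or more and 19.1% lower, so 1 of 6 in each direction is close to the background. The 75th percentile of the processed signal was 95.36 on the control array and 205.8 on the NNK array, so differences are given after normalization, beside the signals.

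The signal of Cdkn2a was 252.2 in control blood and 961.1 in NNK blood, a log2 difference of 1.13 with a scanner error of 0.20. It was under 2-fold with the 75th percentile and with normexp, over a range of 0.82 to 1.15. The signal of Cdkn2b was 95.77 and 91.15, which after normalization gave -1.26 (scanner error 0.23), with a range of -2.29 to -0.73 over the alternatives. After normalization these neighboring genes thus differed in opposite directions between the 2 blood arrays, without replicates, while the signals of Cdkn2b before it were close. The lung comparison was of another kind, tumor against normal lung within NNK-treated rats, so the directions in blood and lung do not answer the same question.

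Cdkn1a had a signal of 181.6 in control and 608.6 in NNK blood, a log2 difference of 0.83 (scanner error 0.21), under 2-fold and opposite in sign to lung. Mdm2 had 466.3 and 708.3 (-0.17), Ccng1 794.6 and 848.3 (-0.56) and Gadd45a 1164 and 1742 (0.07). Ccng1 reached -1.02 with the 75th percentile. Mdm4, at 39.95 and 157.1, differed by 0.77.

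Before normalization, the mean signals of Mdm2, Cdkn1a, Ccng1 and Gadd45a had the same order over the groups. It ran from normal lung through tumor and NNK blood to control blood, with the lung groups overlapping for Mdm2 and Ccng1. After normalization Mdm2 (-0.17) and Ccng1 (-0.56) were instead lower in NNK than in control blood. Mdm2, Cdkn1a, Ccng1, Gadd45a, Cdkn2b and Mdm4 had a far higher signal on every lung array than on either blood array. Cdkn2a was the exception, with normal lung lowest (30.78 to 38.19), then tumor (139.6 to 149.5), control blood (252.2) and NNK blood (961.1). The 75th percentile of the signal was 1191 to 1329 on the lung arrays, above that of both blood arrays, and tissue, scan and array brightness cannot be told apart in this order.

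**Figure D4:**
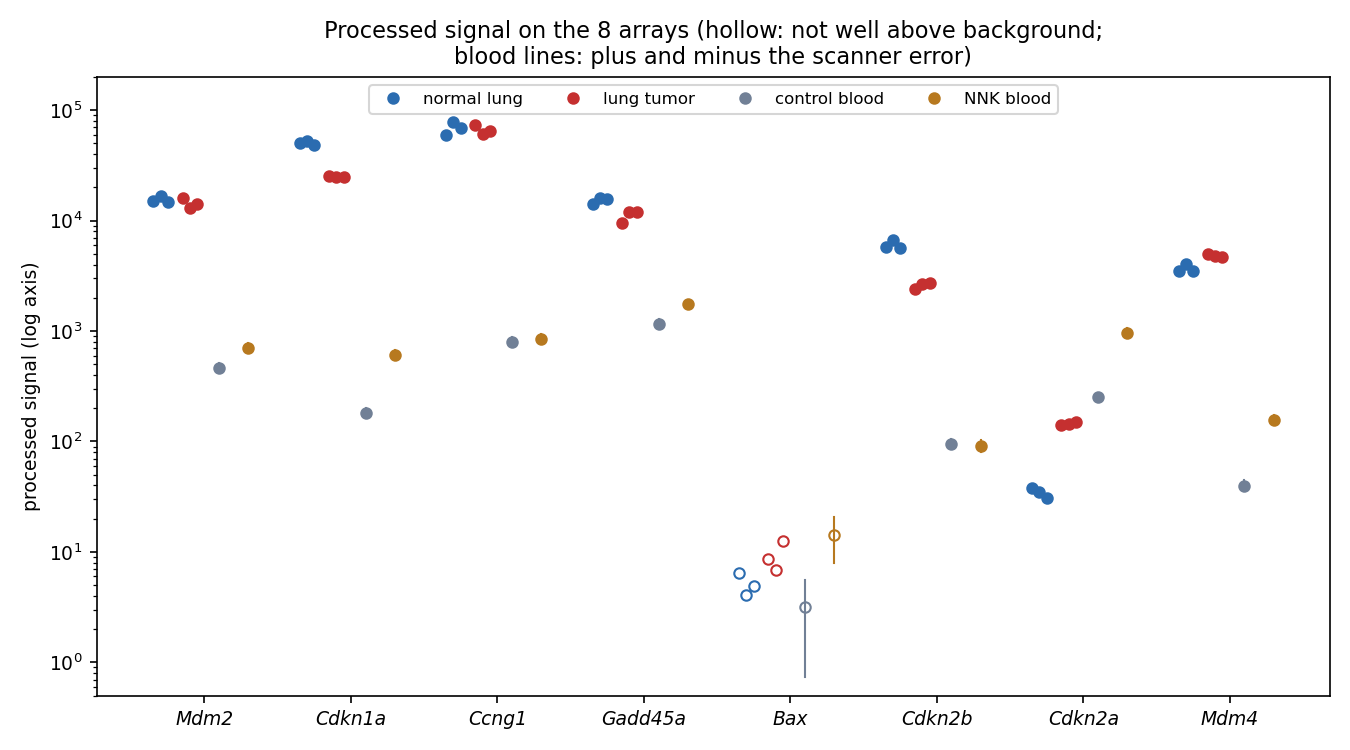
Processed signal, on a log axis, of 8 genes on the 8 arrays, before normalization; points are arrays, hollow points were not well above background and lines on the blood points show the scanner error. Cdkn2a has its highest signals in blood, 252.2 and 961.1, while Cdkn1a is highest in normal lung, and all points of Bax are hollow.

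Of the other pathway genes in blood, 33 of 75 compared were higher by 2-fold or more and 9 lower, with a median of 0.46 beside -0.11 over all probes. Over all probes 23.1% were higher and 19.1% lower. Among the 62 of these genes above background on both arrays, 23 were higher and 8 lower, beside 18.1% and 14.9% of all such probes. The counts depended on the scaling: over all pathway genes, 34 were higher and 10 lower, against 17 higher with normexp and 20 lower with the 75th percentile. The counts over all 14452 probes moved too. Normexp called 1490 of them higher, against 3339 in the main setting, and the 75th percentile 3611 lower, against 2757. Named among genes above background on both arrays, Mgmt was 10.6-fold higher after normalization, with signals of 49.62 and 1010 before it, and Ptprv 7.10-fold higher. Cbx7, a Polycomb protein, was 5.18-fold higher and Ddit4 5.23-fold higher, opposite to lung. Others over 2-fold higher included Kat5 (2.16), Rpl5 (2.03), Btg2 (1.27), Casp1 (2.18), Apaf1 (2.01), Pcna (1.64), Rbl2 (1.43), Bad (2.52) and Bak1 (2.12), as log2 differences. Those over 2-fold lower included Chek1 (-2.05), Rrm2b (-1.13), Ephx1 (-2.60), Cdkn2c (-1.78), Bnip3 (-1.60) and Hrk (-1.17).

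White cell markers differed between the blood arrays. The summed quantile-normalized signal of 4 neutrophil markers was 14700 in control and 70300 in NNK blood. Before normalization S100a8 was by far the brightest of them (12900 and 70100), with Ltf not well above background on either array. The summed normalized signal of 8 T cell markers was 18700 and 19100. After normalization 4 of the 7 T cell markers compared were at least 2-fold higher in NNK blood. The brightest, Cd2 (10400 and 7810) and Cd3d (6370 and 6060), had a lower signal there before normalization. The normalized signals of 4 red blood cell markers summed to 1870000 and 1910000. The part of white cell content in the blood differences was not tested.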

How the data were processed

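Probes were named through their RefSeq accession, by which 14274 of 15321 mRNA probes matched a gene of GRCr8. The authors deposited for each array the intensities of Agilent Feature Extraction 10.5.1.1 per spot, of which the processed signal, already background-subtracted, was used, and a table of log2 values that they quantile-normalized over all 8 arrays, used only as an alternative.

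The log2 processed signals of 42136 non-control spots were quantile-normalized within the 6 lung and the 2 blood arrays with R 4.3.3 and limma 3.58.1. Spots marked as outliers were left out, the spots of a probe were averaged, and a probe was kept in lung where it was well above background (more than 50% of its spots) on at least 3 of 6 arrays and had a value on at least 2 arrays per group. Of the spots above background, 4.92 to 8.62% carried an outlier mark on normal lung arrays and 15.9 to 25.3% on tumor arrays. Genes lost to these marks were tested with the marked spots kept. Lung groups were compared with lmFit and eBayes, with the group as the only term, and p-values were adjusted by Benjamini-Hochberg over all probes tested. Blood arrays, 1 per group, were compared by difference alone, with the scanner error of Feature Extraction as the error. A fold against a group in which no array was well above background is a bound, set against the lowest signal well above background. The number of arrays limits the precision.

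All 9 genes were named, and from each other list the up to 4 largest rises and falls in lung past an adjusted p of 0.05 and 2-fold, the up to 2 largest in blood, and Mdm4. Some genes that this rule names are not reported here. Other genes named were added after their values were seen. Genes and lists were chosen with earlier results of these data known. Where a gene had several probes, the brightest was counted. Alternatives were other normalizations, backgrounds, filters and tests, the deposited values, replicate or scan blocks, near-identical arrays counted once and each lung array left out. The steps were tested on simulated data.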

Additional observations from a re-analysis of the deposited data

How the results depend on the processing

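Of the 31 genes for which alternatives were computed in lung, none that passed changed sign, and Cdkn1a (-1.11 to -0.89) and Cdkn2b (-1.24 to -1) lost the call only with near-identical arrays counted once, while Cdkn2a ranged from 1.04 to 2.03 and kept it, with the limit that counting these arrays once leaves a single normal sample. With these arrays counted once, 0 of the 9 genes were lower by limma after adjustment, against 2 at an unadjusted p under 0.05. In that fit 7 pathway genes were higher and 2 lower after adjustment. The methods' t-test was a separate alternative in which near-identical arrays were not merged. By it 2 of the 9 genes, of which 5 were tested, were lower. With normexp 2 of the 9 genes were higher, beside 4266 of all 12471 probes tested. With outlier-marked spots kept, 37 of 96 pathway genes tested were higher, against 24 of 61 in the main fit. Over all probes tested these settings called 34.5% and 33.7% higher. With the deposited values 37 pathway genes were higher, beside 5713 of all 15786 probes. By the methods' paired t-test 10 of 61 were lower, beside 2429 of all 12455 probes. At the methods' threshold, a 2-fold change and an unadjusted p under 0.05, their t-test called 1 of the 9 genes higher and 1 lower, with 5 tested. It called 9 and 6 of 61 pathway genes. As the nearest count over all 12471 probes, limma with adjusted p and 2-fold called 1683 higher and 1929 lower. Leaving out each lung array in turn gave 18 to 22 pathway genes higher and 12 to 18 lower, and each time 1 of the 9 genes higher and 2 lower. Of the 10804 to 12233 probes tested in these fits, 3042 to 3852 were higher and 3169 to 4163 lower. In blood, 0 of the 9 genes were at least 2-fold higher with the 75th percentile or normexp, and 2 and 0 were at least 2-fold lower. Pathway genes at least 2-fold higher in blood were 17 with normexp, and those lower 20 with the 75th percentile, which moved the median of all probes from -0.11 to -0.26. Of all 14452 probes, the main setting called 3339 higher and 2757 lower. Normexp called 1490 and 841, and the 75th percentile 3229 and 3611. The cause of these shifts was not tested.

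The normal and tumor samples share label numbers and are labelled as matched. Deviations of same-numbered arrays from their group means correlated at 0.164, -0.0131 and 0.156, and those of differently numbered arrays at -0.18 to 0.134. The normal lung arrays differed by less than the noise between spots, so these values cannot show whether the numbers pair the samples. The main fit left the numbers out, and a replicate block was an alternative. With the replicate block the differences stayed at -0.92 for Cdkn1a, -1.12 for Cdkn2b and 1.81 for Cdkn2a, with 1 gene higher and 2 lower as without it, and 21 pathway genes were higher and 16 lower. Among named genes the block ended the call of Chek2 (adjusted p = 0.0636 by limma).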
